A study of Mus musculus with 9 samples.

Results

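The 39 genes described here run mitosis: the kinases and cyclins that start it, the checkpoint and kinetochore proteins that attach chromosomes to the spindle, the motors that build the spindle, and the proteins that separate sister chromatids and cut the cell in 2. They were chosen by name and function, with earlier results of these data known. All 39 were found among the 23201 genes with a named transcript and were among the 12159 genes tested. The samples were cerebral cortex of E13.5 mouse embryos of the mixed background C57BL/6+C57BL/6J+CBA, 3 control, 3 heterozygous (Sfpq+/-) and 3 homozygous (Sfpq-/-) for a knockout of Sfpq, a nuclear RNA-binding protein, with 1 RNA-seq library per embryo made from total RNA after removal of ribosomal RNA. The labels give the material as neural stem cells and neurons. The sources used here do not give how the Sfpq allele was made or whether a Cre driver was used. The extraction text writes the same genotype for both mutant groups, so groups follow the genotype label. The series asks how Sfpq acts on the transcription of long neuronal genes.

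At this stage radial glia divide along the ventricle and make further progenitors and the first neurons. A cell enters mitosis when Cdk1 is switched on by B-type cyclins. Kinetochores then catch spindle microtubules, the checkpoint holds the anaphase-promoting complex (APC/C, a ubiquitin ligase) in check until all are attached, and destruction of securin and cyclin B lets sister chromatids part. The genes of this programme are transcribed late in the cell cycle and are low in neurons, which have stopped dividing, so in a whole cortex their RNA comes mainly from dividing cells.

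Many genes of this programme carry a cell cycle genes homology region (CHR) near their start, the site bound by the DREAM and B-Myb-MuvB complexes, often next to CCAAT boxes bound by NF-Y. The stretches below are shown because they hold these motifs in 5 members that fell in homozygous cortex. Nuf2, which fell, and Pttg1, the only member with a higher mean in homozygous cortex, are shown because their windows hold no match to the forms searched. Each runs 5′ to 3′ on the gene's strand from 130 bases before to 30 bases after the gene start, from RefSeq on GRCm38.p6. Capitals mark CHR matches (TTTGAA or TTCGAA, searched on both strands, so also TTCAAA) and CCAAT boxes (CCAAT, or ATTGG on the other strand). Close variants, such as the CTTGAA in the Pttg1 stretch, were not searched.
Cenpa, chr5:30666756-30666915, plus strand: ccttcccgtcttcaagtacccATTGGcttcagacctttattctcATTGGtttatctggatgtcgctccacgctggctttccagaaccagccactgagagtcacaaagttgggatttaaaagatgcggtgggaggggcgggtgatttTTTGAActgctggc
Cdk1, chr10:69352883-69353042, minus strand: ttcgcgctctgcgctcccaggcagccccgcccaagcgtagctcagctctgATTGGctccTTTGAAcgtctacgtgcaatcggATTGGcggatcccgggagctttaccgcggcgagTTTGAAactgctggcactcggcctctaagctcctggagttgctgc
Top2a, chr11:99024160-99024319, minus strand: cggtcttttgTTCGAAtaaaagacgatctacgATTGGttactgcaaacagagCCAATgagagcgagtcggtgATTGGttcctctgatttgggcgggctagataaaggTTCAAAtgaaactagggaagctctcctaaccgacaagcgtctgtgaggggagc
Cdc20, chr4:118437314-118437473, minus strand: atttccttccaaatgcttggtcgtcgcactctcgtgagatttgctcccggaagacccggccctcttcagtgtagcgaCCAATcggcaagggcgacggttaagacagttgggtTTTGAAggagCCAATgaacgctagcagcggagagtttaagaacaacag
Ube2c, chr2:164769799-164769958, plus strand: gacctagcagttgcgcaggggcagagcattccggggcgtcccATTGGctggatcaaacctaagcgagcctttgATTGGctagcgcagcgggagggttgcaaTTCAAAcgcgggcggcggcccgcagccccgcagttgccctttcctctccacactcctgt
Nuf2, chr1:169531435-169531594, minus strand: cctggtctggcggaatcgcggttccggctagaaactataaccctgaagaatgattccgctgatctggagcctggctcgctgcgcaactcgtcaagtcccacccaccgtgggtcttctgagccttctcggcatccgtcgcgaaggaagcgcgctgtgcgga
Pttg1, chr11:43425952-43426111, minus strand: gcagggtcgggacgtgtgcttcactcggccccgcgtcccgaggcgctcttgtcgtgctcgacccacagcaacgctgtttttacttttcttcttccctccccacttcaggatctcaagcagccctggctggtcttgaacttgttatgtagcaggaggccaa

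A window of 250 bases before to 50 bases after the start was at hand for 34 of the 39 members. Only the first listed window of a gene was used, which need not lie at the start of the transcript measured. CHR matches were found in 26 of these 34 windows (76.5%), against 13.7% of the windows of 9661 tested genes and 19.4% of those of all 27025 genes. In 24 of the 34 the match began no more than 50 bases before the start, which held for 3.55% of tested genes. CCAAT boxes were found in 26 members (76.5%, against 39.8% of tested genes), and 23 members (67.6%, against 6.16%) had both. The 8 members with no CHR match in the window were Birc5, Ccnb1, Cenpe, Mad2l1, Nek2, Nuf2, Plk4 and Pttg1. Their median log2 change in homozygous against control cortex was -0.47, and that of the 26 with a match was -0.44, with 6 of the 8 and 21 of the 26 called lower; the 8 include Pttg1, and the difference was not tested. Birc5, Mad2l1, Nuf2, Plk4 and Pttg1 had no match to either motif in the window used. Of 19 S phase genes with a window 4 (21.1%) had a CHR match and 13 (68.4%) a CCAAT box. A match is a description of the letters in the window, and no binding was measured.

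**Figure D1:**
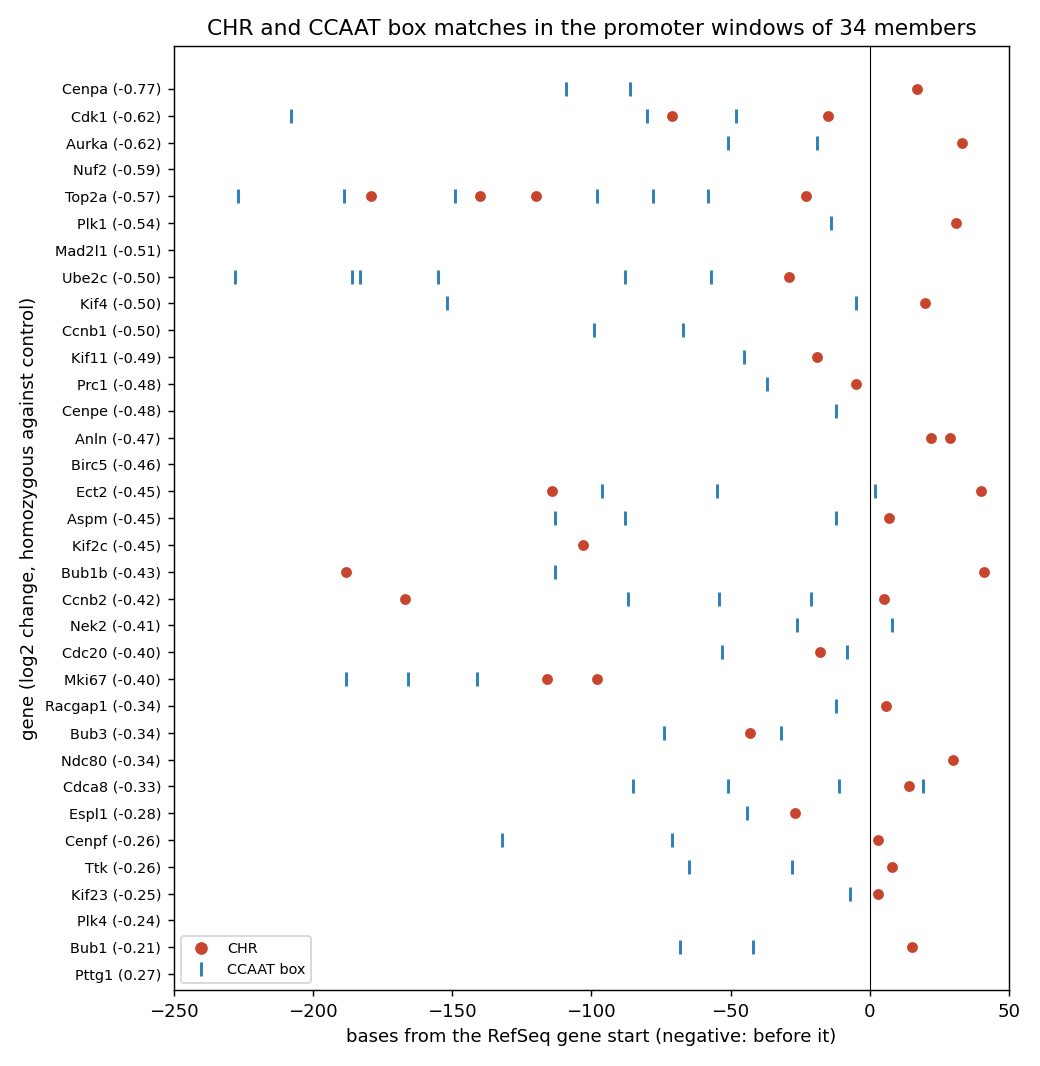
Position of the first base of each CHR match (circles) and CCAAT box (bars) in bases from the RefSeq gene start (x axis) for 34 members, ordered by log2 change in homozygous against control cortex (y axis, change in parentheses). Matches to the CHR sit close to the start in most members, and Nuf2, Mad2l1, Birc5, Plk4 and Pttg1 have no symbol.

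Levels below are RPKM, reads scaled to the length of the transcript and the size of the library, given in the order of libraries 1, 2 and 3 of a genotype. Changes are differences of log2(RPKM + 0.5), with a standard error (SE), which slightly understate the change of low genes. A gene was called changed at an adjusted p below 0.05 (limma, Benjamini-Hochberg over all 12159 genes). Sfpq, taken by the same rule as the members (the transcript with the highest mean, here a non-coding one of 925 bases), was at 184, 202 and 218 RPKM in control, at 185, 163 and 169 RPKM in heterozygous and at 26.1, 28.6 and 27.6 RPKM in homozygous libraries. The homozygous level was 13.6% of control (log2 change -2.85 ± 0.07 SE, adjusted p = 1.22e-09; two-sided exact permutation p = 0.1, the smallest that 3 against 3 allow) and the heterozygous level 85.6% (log2 change -0.22 ± 0.07 SE, adjusted p = 0.709). The coding transcript went from a mean of 185 to 24.96 RPKM. The estimated depth was 169.5 M to 204.5 M reads per library. Judged by Xist and Y-linked RNA, there were 2 females among the control embryos, 0 among the heterozygous and 1 among the homozygous.

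In homozygous cortex the mitotic genes were lower almost throughout. Of the 39 members 32 fell and 0 rose (82.1% lower, where 19.9% of all genes tested were called lower), and 38 had a mean below control (51.6% of all genes). Their median log2 change was -0.45, against -0.01 for all genes tested, and the median member stood at 73.1% of its control level. The 32 that fell ranged from 57.9% of control for Cenpa to 84.0% for Plk4. In 33 members all 3 homozygous libraries lay below all 3 controls (25.6% of genes tested), in 1, Pttg1, they lay above (20.6%), and in 5 the groups overlapped. The tissue was read in bulk, so fewer dividing cells and less of this RNA per cell cannot be told apart. With another scaling the share of all calls that were lower moved from 58.1% to 45.8% (quantile normalization) or 39.7% (same median in each library). Then 32 and 31 members were called lower, where 17.8% and 16% of all genes tested were.

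**Figure D2:**
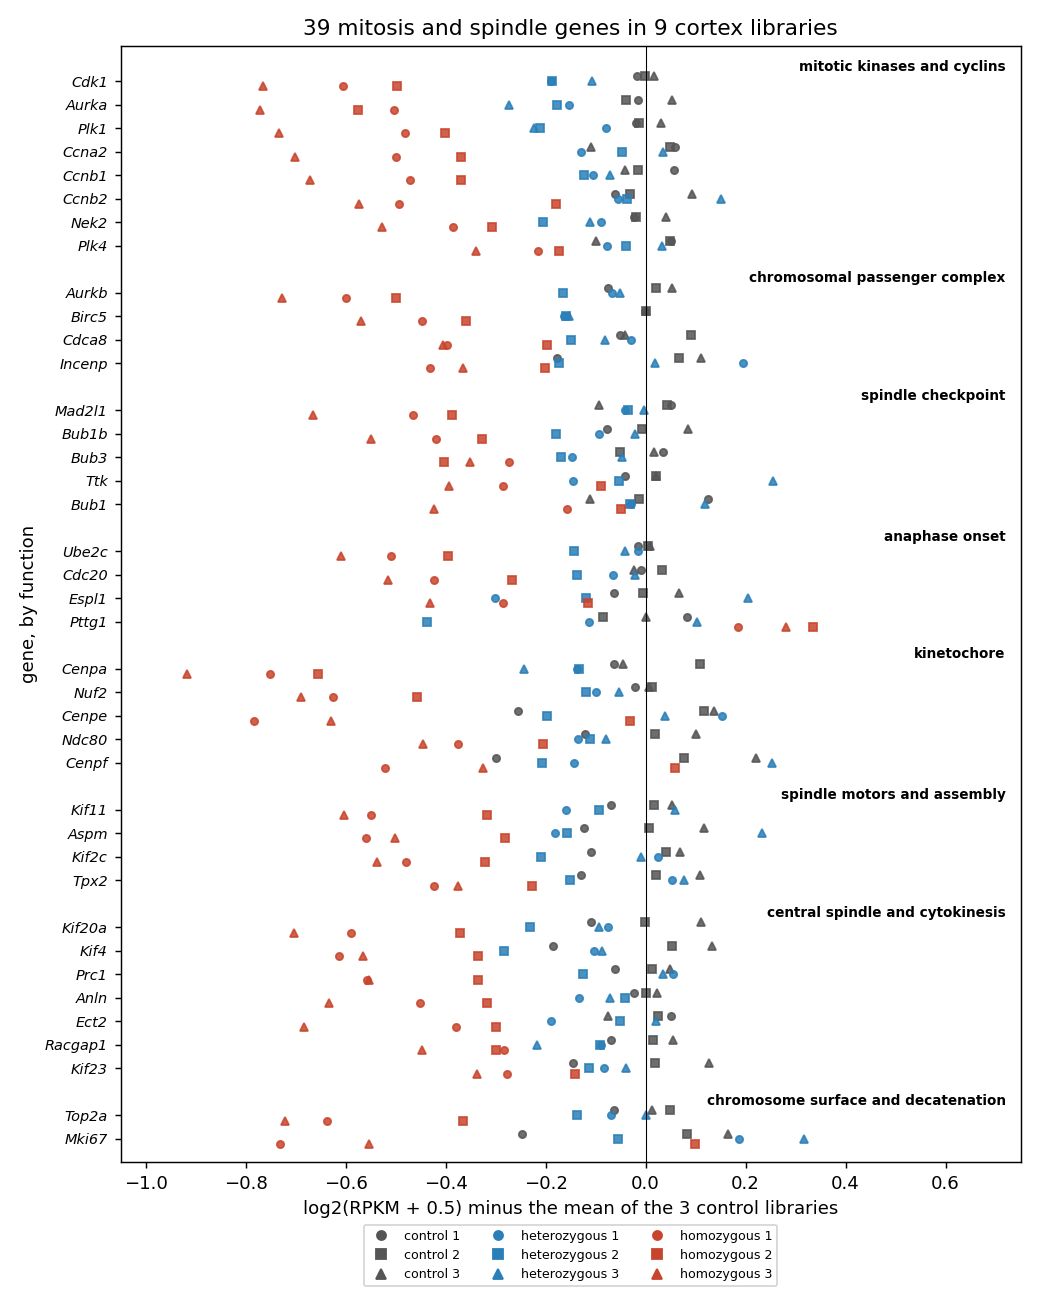
Level of each of the 39 members in each library as log2(RPKM + 0.5) minus the mean of the 3 control libraries (x axis), grouped by function (y axis). Colour gives the genotype and symbol shape the replicate number. Homozygous libraries lie below 0 for 38 members as a mean, Pttg1 lies above, and homozygous library 2 is the highest of its group in 36 members.

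Mitotic kinases and cyclins, which switch mitosis on and time its steps, fell in 8 of 8 cases (median log2 change -0.51). Cdk1, the kinase that drives entry into mitosis, was at 67.9, 68.7 and 69.6 RPKM in control, 60.2, 60.3 and 63.8 RPKM in heterozygous and 45.0, 48.5 and 40.2 RPKM in homozygous libraries. The 3 genotypes did not overlap for Cdk1, with the heterozygous libraries in between, and the homozygous change was -0.62 ± 0.06 (SE, adjusted p = 2.39e-05). Aurka, the kinase of spindle poles and centrosome maturation, was at 46.7, 46.0 and 49.0 RPKM in control, 42.4, 41.7 and 39.0 RPKM in heterozygous and 33.2, 31.5 and 27.5 RPKM in homozygous libraries. It showed the same order of genotypes with no overlap, and a change of -0.62 ± 0.07 (SE, adjusted p = 4.63e-05). Ccnb1, cyclin B1, was at 74.7, 71.0 and 69.8 RPKM in control, 66.8, 65.9 and 68.3 RPKM in heterozygous and 51.7, 55.4 and 44.9 RPKM in homozygous libraries (change -0.50 ± 0.07 SE, adjusted p = 2.08e-04). Its paralog Ccnb2 fell by 0.42 and the earlier cyclin Ccna2 by 0.52 on the log2 scale. Plk1, a kinase that acts from mitotic entry to cytokinesis, fell by 0.54 and the centrosome kinase Nek2 by 0.41. The smallest change of the group was that of Plk4, the kinase that starts centriole duplication, at -0.24 ± 0.07 (SE, adjusted p = 0.0144). The Plk4 call was lost with the same median in each library (adjusted p = 0.110), without control library 2 (0.0633) and without homozygous library 3 (0.0580).

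The chromosomal passenger complex, which corrects faulty attachments at the centromere and later marks the cleavage plane, fell in 4 of 4 members (median log2 change -0.40). Its kinase Aurkb was at 37.8, 40.4 and 41.3 RPKM in control, 38.0, 35.4 and 38.4 RPKM in heterozygous and 26.1, 28.0 and 23.8 RPKM in homozygous libraries (change -0.61 ± 0.07 SE, adjusted p = 3.50e-05). Birc5, survivin, which docks the complex on chromatin, was at 62.1, 62.2 and 62.2 RPKM in control, 55.5, 55.6 and 55.9 RPKM in heterozygous and 45.5, 48.4 and 41.7 RPKM in homozygous libraries (change -0.46 ± 0.05 SE, adjusted p = 7.22e-05). For Birc5 the spread within control and heterozygous cortex was under 0.5 RPKM, and the 3 genotypes did not overlap. Cdca8, borealin, fell by 0.33 on the log2 scale. The scaffold Incenp fell by 0.33 too, a call that was lost on leaving out any of control 2, control 3, homozygous 1 or homozygous 3 (adjusted p = 0.0770 to 0.0983) and with no filter on low values (0.119).

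Of the 5 spindle checkpoint genes, whose products hold back anaphase until every kinetochore is attached, 3 fell (median log2 change -0.34). Mad2l1, which binds and blocks Cdc20, was at 29.5, 29.3 and 26.6 RPKM in control, 27.6, 27.7 and 28.3 RPKM in heterozygous and 20.4, 21.6 and 17.7 RPKM in homozygous libraries (change -0.51 ± 0.07 SE, adjusted p = 2.63e-04). Bub1b, BubR1, was at 61.4, 64.5 and 68.8 RPKM in control, 60.8, 57.2 and 63.9 RPKM in heterozygous and 48.4, 51.6 and 44.1 RPKM in homozygous libraries (change -0.43 ± 0.07 SE, adjusted p = 5.47e-04). Bub3, its partner, was at 47.6, 44.8 and 47.1 RPKM in control, 41.9, 41.3 and 44.9 RPKM in heterozygous and 38.4, 35.0 and 36.3 RPKM in homozygous libraries (change -0.34 ± 0.05 SE, adjusted p = 5.48e-04). Homozygous libraries lay below both other groups for all 3. The kinases Bub1 and Ttk did not pass. Bub1 was at 18.3, 16.6 and 15.5 RPKM in control, 16.4, 16.4 and 18.2 RPKM in heterozygous and 15.0, 16.2 and 12.4 RPKM in homozygous libraries (change -0.21 ± 0.10 SE, adjusted p = 0.117), and the groups overlapped. Ttk, Mps1, was at 16.4, 17.1 and 17.1 RPKM in control, 15.2, 16.2 and 20.2 RPKM in heterozygous and 13.7, 15.8 and 12.7 RPKM in homozygous libraries (change -0.26 ± 0.10 SE, adjusted p = 0.0745). Without homozygous library 2 both were called lower (adjusted p = 0.0434 for Bub1 and 0.0300 for Ttk), and Ttk also without heterozygous library 3 (0.0281) and in a fit of the 2 groups alone (0.0381).

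The 4 genes of anaphase onset went different ways. Ube2c, the ubiquitin-conjugating enzyme of the APC/C, was at 27.2, 27.5 and 27.6 RPKM in control, 27.1, 24.8 and 26.6 RPKM in heterozygous and 19.1, 20.7 and 17.8 RPKM in homozygous libraries (change -0.50 ± 0.06 SE, adjusted p = 9.11e-05). Cdc20, which brings substrates to the APC/C, was at 37.0, 38.1 and 36.6 RPKM in control, 35.6, 33.8 and 36.7 RPKM in heterozygous and 27.6, 30.9 and 25.9 RPKM in homozygous libraries (change -0.40 ± 0.06 SE, adjusted p = 6.12e-04). Both fell with no overlap between homozygous and control libraries. Espl1, separase, the protease that cuts cohesin and the lowest member at a mean of 3.81 RPKM, was at 3.94, 4.12 and 4.36 RPKM in control, 3.27, 3.77 and 4.85 RPKM in heterozygous and 3.31, 3.78 and 2.94 RPKM in homozygous libraries. All 3 homozygous libraries lay below control, but the change of -0.28 ± 0.12 (SE) did not pass (adjusted p = 0.107, but 0.0475 without heterozygous library 3). Pttg1, securin, the inhibitor that holds separase back, was at 5.06, 4.45 and 4.75 RPKM in control, 4.35, 3.37 and 5.13 RPKM in heterozygous and 5.46, 6.12 and 5.87 RPKM in homozygous libraries. All 3 homozygous libraries lay above the other 6. Against control the Pttg1 change of 0.27 ± 0.12 (SE) did not pass (adjusted p = 0.104). It did pass under quantile normalization (0.0384), with the same median in each library (0.0364), in a fit of the 2 groups alone (0.0285) and without heterozygous library 2 (0.0362). Its second transcript, of 1674 bases, had means of 1.81 RPKM (control) and 2.24 RPKM (homozygous).

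Kinetochore genes fell in 3 of 5 cases (median log2 change -0.48), and the steepest fall of all 39 members was here. Cenpa, the histone H3 variant that marks centromeres, was at 32.1, 36.2 and 32.5 RPKM in control, 30.5, 30.6 and 28.3 RPKM in heterozygous and 19.8, 21.1 and 17.5 RPKM in homozygous libraries. The 3 genotypes did not overlap, and the homozygous change was -0.77 ± 0.07 (SE, adjusted p = 1.46e-05). Nuf2 and Ndc80 form the arm of the outer kinetochore that grips microtubules. Nuf2 was at 57.8, 59.2 and 58.9 RPKM in control, 54.7, 53.9 and 56.5 RPKM in heterozygous and 37.8, 42.5 and 36.2 RPKM in homozygous libraries (change -0.59 ± 0.06 SE, adjusted p = 2.02e-05). Ndc80 was at 48.1, 53.1 and 56.2 RPKM in control, 47.7, 48.5 and 49.6 RPKM in heterozygous and 40.3, 45.4 and 38.4 RPKM in homozygous libraries (change -0.34 ± 0.07 SE, adjusted p = 0.00327). For both partners all homozygous libraries lay below every control, and the difference between their changes was not tested.

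The long kinetochore transcripts Cenpe and Cenpf did not pass. Cenpe, a motor that moves chromosomes to the spindle equator, was at 17.1, 22.3 and 22.6 RPKM in control, 22.9, 17.8 and 21.1 RPKM in heterozygous and 11.7, 20.1 and 13.1 RPKM in homozygous libraries (change -0.48 ± 0.18 SE, adjusted p = 0.0542). Cenpf, a large coiled-coil protein of the outer kinetochore, was at 24.8, 32.3 and 35.8 RPKM in control, 27.7, 26.5 and 36.5 RPKM in heterozygous and 21.2, 31.9 and 24.3 RPKM in homozygous libraries (change -0.26 ± 0.17 SE, adjusted p = 0.262). Homozygous library 2 stood within the control range for Cenpe and Cenpf, and control library 1 was the lowest control. Cenpe was called lower without homozygous library 2 (adjusted p = 0.00236), without control library 1 (0.0272) and with sex in the model (0.0168), and Cenpf only without both libraries (0.0108).

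The 4 spindle motor and assembly genes all fell (median log2 change -0.45). Kif11, the Eg5 motor that pushes spindle poles apart, was at 76.5, 81.2 and 83.3 RPKM in control, 71.9, 75.2 and 83.6 RPKM in heterozygous and 54.7, 64.3 and 52.6 RPKM in homozygous libraries (change -0.49 ± 0.08 SE, adjusted p = 6.67e-04). Kif2c, MCAK, which takes microtubules apart at centromeres, was at 33.9, 37.7 and 38.4 RPKM in control, 37.3, 31.6 and 36.4 RPKM in heterozygous and 26.1, 29.2 and 25.1 RPKM in homozygous libraries (change -0.45 ± 0.08 SE, adjusted p = 0.00124). In both, control and heterozygous libraries overlapped and homozygous libraries lay below them. Tpx2, which activates Aurora A on the spindle, fell by 0.34 on the log2 scale. Aspm, a spindle pole protein whose loss causes small brains, fell by 0.45 (adjusted p = 0.0100, but 0.0676 with no filter on low values).

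All 7 genes of the central spindle and cytokinesis fell (median log2 change -0.47). Prc1, which bundles the antiparallel microtubules of the midzone, was at 138, 145 and 149 RPKM in control, 150, 132 and 148 RPKM in heterozygous and 97.9, 114 and 98.1 RPKM in homozygous libraries (change -0.48 ± 0.07 SE, adjusted p = 3.31e-04). Kif20a, a motor that carries passengers to the midzone, was at 35.2, 38.0 and 41.1 RPKM in control, 36.0, 32.3 and 35.6 RPKM in heterozygous and 25.1, 29.3 and 23.1 RPKM in homozygous libraries (change -0.55 ± 0.09 SE, adjusted p = 5.18e-04). Anln, anillin, the scaffold of the contractile ring, was at 12.2, 12.4 and 12.6 RPKM in control, 11.2, 12.0 and 11.7 RPKM in heterozygous and 8.91, 9.82 and 7.79 RPKM in homozygous libraries (change -0.47 ± 0.08 SE, adjusted p = 7.06e-04). The homozygous libraries were the 3 lowest for each of these genes. Kif4, a chromosome-arm and midzone motor on the X chromosome, fell by 0.50 on the log2 scale, and its adjusted p stayed between 1.42e-04 and 0.0230 in the 23 alternative fits, sex in the model included. Ect2, which activates RhoA at the cleavage plane, fell by 0.45. Racgap1, a subunit of centralspindlin, the complex that bundles midzone microtubules, fell by 0.34. Kif23, the motor subunit of centralspindlin, changed least, at -0.25 ± 0.07 (SE, adjusted p = 0.0215), and was the only called member whose homozygous and control libraries overlapped. That call was lost on leaving out any of control 2, control 3, homozygous 1 or homozygous 3 (adjusted p = 0.0651 to 0.0804) and with no filter on low values (0.0758).

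Top2a, topoisomerase II alpha, which untangles sister chromatids, had the highest level of the 39 members. It was at 290, 314 and 306 RPKM in control, 289, 276 and 304 RPKM in heterozygous and 195, 235 and 184 RPKM in homozygous libraries (change -0.57 ± 0.08 SE, adjusted p = 2.80e-04), with no overlap between homozygous libraries and the rest. Mki67, Ki-67, which coats mitotic chromosomes and is the standard marker of dividing cells, was at 15.6, 19.7 and 20.9 RPKM in control, 21.2, 17.9 and 23.3 RPKM in heterozygous and 11.0, 19.9 and 12.5 RPKM in homozygous libraries. Homozygous library 2 was as high as control for Mki67 and the other 2 were below every control. The change of -0.40 ± 0.19 (SE) did not pass (adjusted p = 0.129). It passed when homozygous library 2 was left out (0.00462) and when sex was a term of the model (0.0352).

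Libraries of a genotype differed in the same direction across the members. Homozygous library 2 was the highest of its group in 36 of 39 members and homozygous library 3 the lowest in 29, and the median member stood 0.47, 0.32 and 0.55 below control on the log2 scale in homozygous libraries 1, 2 and 3. Among controls, library 1 was the lowest in 29 members and library 3 the highest in 25. The gap was widest in the 4 members with at least 7 kb of exons, Aspm, Cenpe, Cenpf and Mki67: their median deviation from the group mean was 0.39 in homozygous library 2, -0.28 in homozygous library 1 and -0.25 in control library 1. Over all 888 tested genes of that length the same values were 0.03, -0.07 and -0.09. Without homozygous library 2, 36 members were called lower, where 17.9% of all genes were. Without homozygous library 2 and control library 1 it was also 36, where 18.2% of all genes were, a fit chosen after the data were seen. What sets these libraries apart was not tested.

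**Figure D3:**
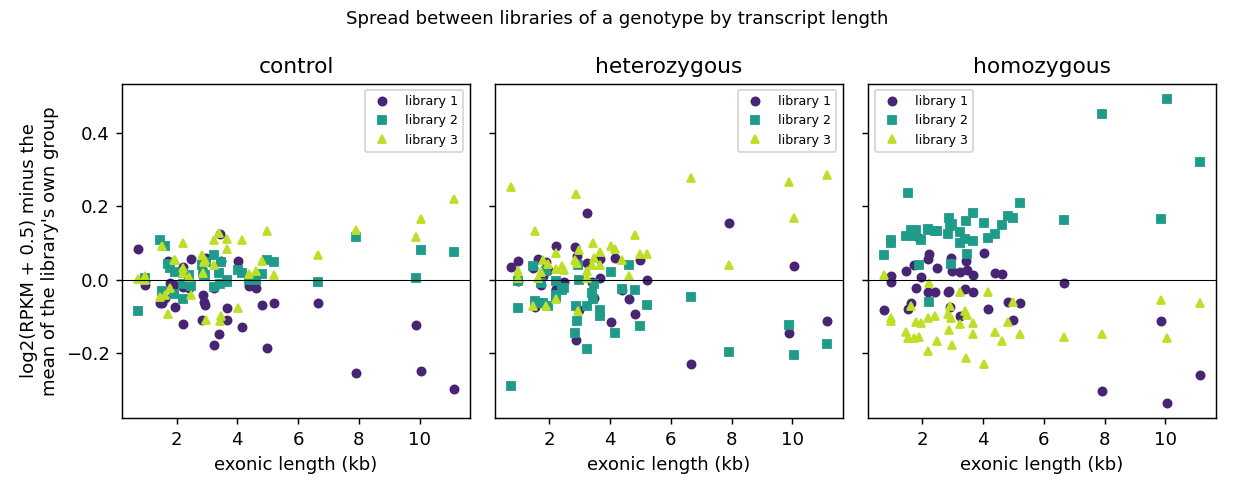
Deviation of each library from the mean of its own genotype in log2(RPKM + 0.5) (y axis) against exonic length in kb (x axis) for the 39 members, 1 panel per genotype and 1 symbol per library. Homozygous library 2 lies above its group for nearly all members, most for the longest transcripts, where homozygous library 1 and control library 1 lie below theirs.

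Members are short genes. They span 3.0 to 101.5 kb with a median of 23.0 kb, and Kif4 alone spans at least 100 kb. Among the 10505 tested genes spanning under 100 kb 16.3% were called lower, and 31 of the 38 members of that span were.

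The heterozygous comparison asks whether losing 1 Sfpq copy is enough. No gene was called, 0 of the 39 members and 0 of 12159 genes (0% in either direction; limma), and the SE of each member is that of the comparison above. At an unadjusted p under 0.05, 6 members were lower (Cdk1, Aurka, Birc5, Bub3, Cenpa and Racgap1) and 0 higher, where 4.31% of all genes were lower and 1.44% higher. The median member change was -0.07, against -0.01 for all genes, and 34 of 39 means were below control (54.2% of all genes). With quantile normalization 31 and with the same median in each library 32 were below. In 11 members the heterozygous libraries lay wholly below control (7.54% of all genes) and in 0 wholly above (3.54%). The lowest heterozygous levels relative to control were 86.8% for Aurka (change -0.20 ± 0.07 SE, adjusted p = 0.732), 88.4% for Plk1 and 88.6% for Cenpa, and the highest was 111% for Mki67.

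Homozygous against heterozygous cortex, which shares its homozygous libraries with the comparison to control, gave 32 members lower and 1 higher, where 18.3% of all genes were called lower and 14.6% higher. The median member change was -0.38, against 0.00 for all genes, and 38 of 39 means were lower (49.7% of all genes). At an unadjusted p under 0.05, 36 members were lower, against 22.4% of all genes. Of the 32, 31 were also called against control; Kif23 was not called here (adjusted p = 0.0963) and Mki67 was (change -0.55, adjusted p = 0.0443). The Mki67 call was lost in 11 of the 23 alternative fits, among them those without heterozygous library 1 or 3 or homozygous library 1 or 3 (adjusted p = 0.105 to 0.165). Cenpa again changed most, by -0.60 ± 0.07 (SE, adjusted p = 9.55e-05), then Mki67 and Aurkb at -0.51 ± 0.07 (SE, adjusted p = 1.28e-04). The member that rose was Pttg1, at 0.42 ± 0.12 (SE, adjusted p = 0.0191), a call that was lost with no filter (0.0841) and without heterozygous library 2 (0.0625), homozygous library 2 (0.0572) or homozygous library 3 (0.0506).

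**Figure D4:**
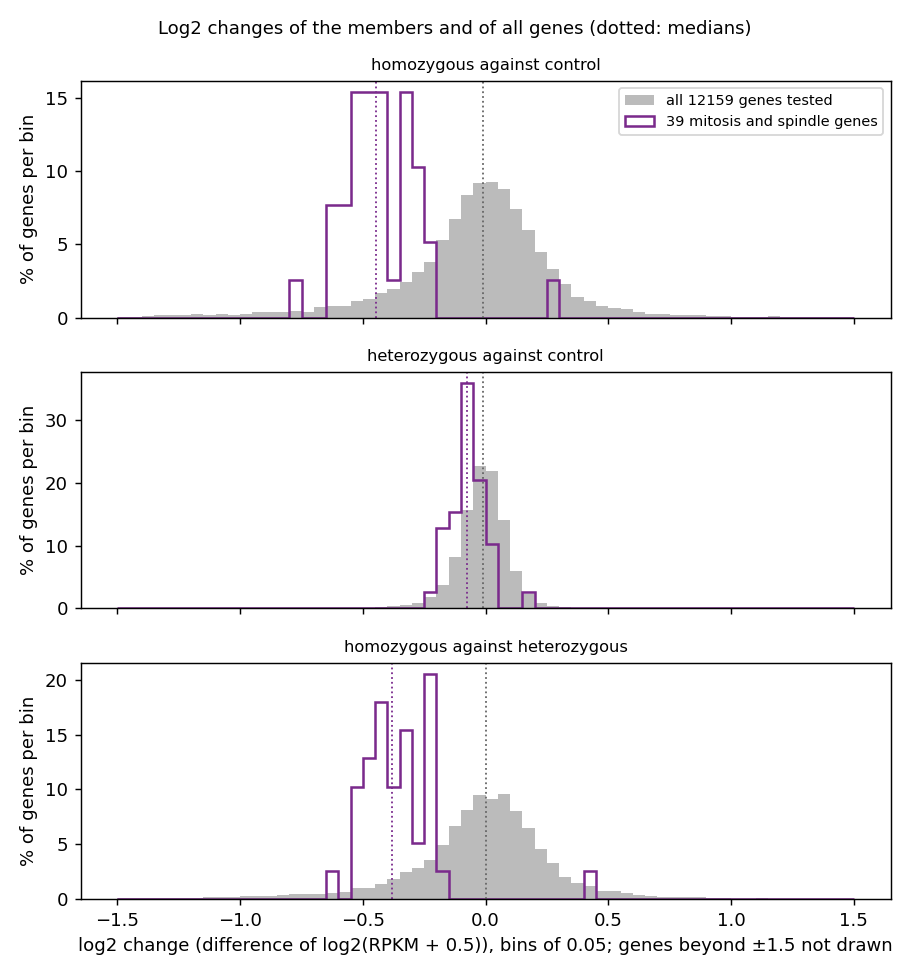
Share of genes per bin of log2 change (bins of 0.05; x axis, difference of log2(RPKM + 0.5); y axis, percent of genes) for all 12159 genes tested (grey) and the 39 members (outline) in the 3 comparisons, with dotted lines at the medians. The members' medians lie at -0.45, -0.07 and -0.38, and the bin above 0.25 in the first panel holds Pttg1.

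Other genes of the pathway were listed by function, with earlier results of these data known. Of 13 further entry kinases and phosphatases 8 fell and 1 rose (median log2 change -0.31): the mitotic kinase Pbk went from 64.1 ± 4.95 to 28.6 ± 4.09 RPKM (SD, n = 3), Cdc25b, which activates Cdk1, fell by 0.51, and Cdk7, the kinase that activates other cyclin-dependent kinases, rose by 0.21. Of 30 other kinetochore and centromere genes 16 fell and 0 rose (median -0.27), led by Cenpp at -1.55 ± 0.11 (SE), a gene of 189 kb, and Cenph at -0.92 ± 0.08 (SE), partners in the inner kinetochore. Of 27 other spindle and motor genes 18 fell and 0 rose (median -0.36), with Tacc3, which stabilises spindle fibres, at -0.49 and the abscission protein Cep55 at -0.63. Of 21 condensin and cohesin genes, which fold chromosomes and tie sister chromatids, 11 fell and 0 rose (median -0.21), led by the cohesin acetyltransferase Esco2 at -0.61 and the condensin subunit Ncapg2 at -0.59.

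APC/C genes stood closer to control, with 5 of 15 lower, 1 higher and a median log2 change of -0.05. The lower ones included Ube2s, which extends ubiquitin chains, at -0.41 and the APC/C inhibitor Fbxo5 at -0.81, and the higher one was the subunit Anapc13 at 0.19. Of 20 regulators of late cell cycle transcription 12 fell and 1 rose (median -0.32): the MuvB subunit Lin52 was at -0.53, the NF-Y subunit Nfyb at -0.41 and Lin37, another MuvB subunit, at 0.29. Of 24 S phase genes 18 fell and 0 rose (median -0.30), with the replication clamp Pcna at -0.51 and the helicase partner Cdc45 at -0.51. Of 11 inhibitors of the cell cycle 5 fell and 3 rose (median -0.20): Cdkn2c fell from 6.56 ± 0.267 to 2.48 ± 0.185 RPKM (SD, n = 3) and the antiproliferative gene Btg1 by 0.46, while the p53 targets Ccng1 and Gadd45a rose by 1.38 and 0.71. Shares of 19.9% lower and 14.4% higher over all genes tested are the background for these counts.

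**Figure D5:**
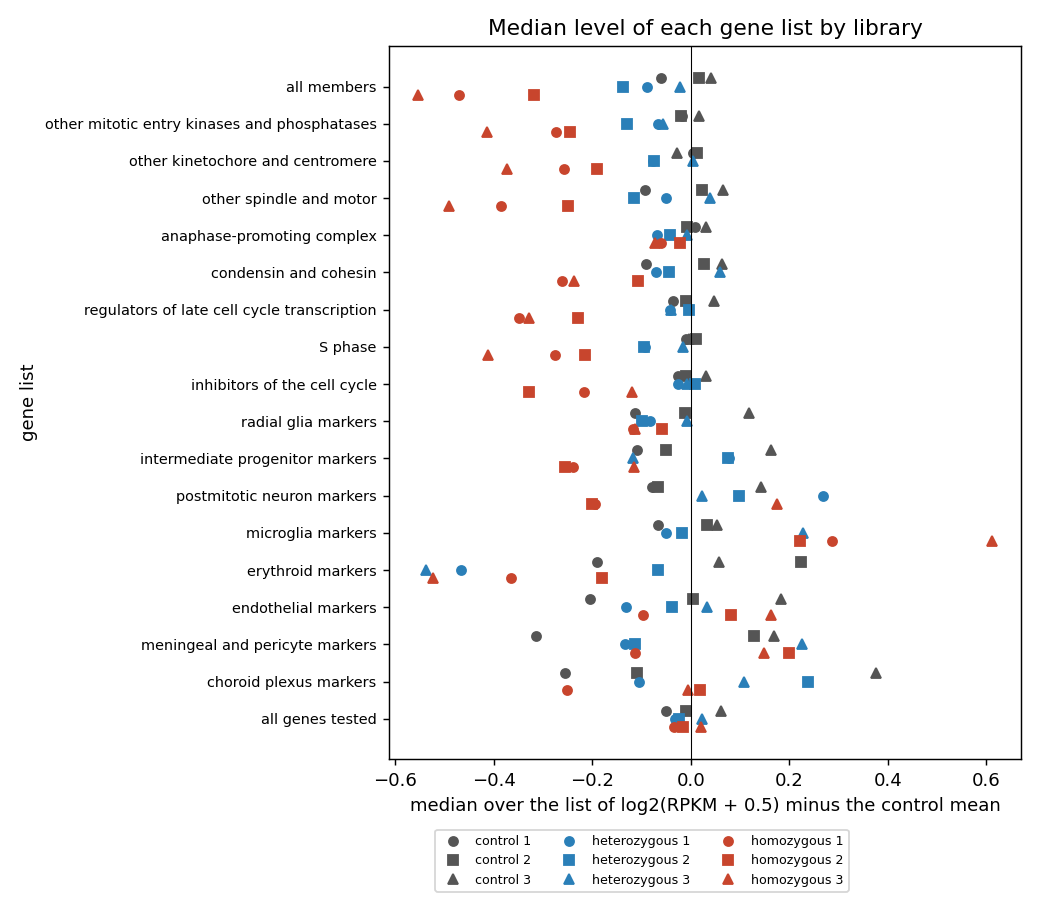
Median of each gene list by library, as log2(RPKM + 0.5) minus the control mean (x axis), for the 39 members, the other pathway lists, the cell type markers and all genes tested (y axis). Colour gives the genotype and symbol shape the replicate number. The 3 homozygous libraries lie below all controls for the members, every other pathway list and the intermediate progenitor markers. They lie above all controls for the microglia markers, while the medians of the radial glia markers of the 3 genotypes overlap.

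Cell type markers went in both directions, and all that passed in the next 3 lists are named, a choice made after their values were seen. The background for these counts and those of the next paragraph is again 19.9% lower and 14.4% higher over all genes tested. The neuron counts are near these shares. Of 12 radial glia markers 4 fell and 1 rose (median log2 change -0.08), with Prom1 at -0.67, Lhx2 at -0.68, Fabp7 at -0.43, Slc1a3 at -0.24 and Vim at 0.31. The summed level was 1986 to 2169 RPKM in control, 1928 to 2188 RPKM in heterozygous and 1852 to 1943 RPKM in homozygous libraries. Pax6, the regulator of radial glia, had a control mean of 29.8 ± 4.10 RPKM and a homozygous mean of 30.4 ± 1.39 RPKM (SD, n = 3, adjusted p = 0.810). Of 8 intermediate progenitor markers 3 fell and 2 rose (median -0.17), and their sum was 124 to 168 RPKM in control, 126 to 146 RPKM in heterozygous and 89.0 to 94.6 RPKM in homozygous libraries. The log2 changes were -1.34 for the proneural factor Neurog2 (39.3% of control), -0.76 for Insm1, -0.50 for Eomes, the transcription factor of these cells, 0.52 for Btbd17 and 0.50 for Neurod1. All 3 homozygous libraries lay below every control in this sum, as they did in the radial glia sum. They did so too in the sum of the 39 members (1759 to 1872 RPKM in control, 1213 to 1461 RPKM in homozygous libraries). Among single genes tested 25.6% lay so, a share that is no background for sums, in which the highest genes weigh most. In the radial glia sum Fabp7 alone had a mean of 995 RPKM in control and 736 RPKM in homozygous libraries. The library medians of the radial glia list overlapped between control and homozygous cortex, and its sum without Fabp7 was not tested. Of 12 markers of postmitotic neurons 3 fell and 2 rose (median -0.09), with sums of 738 to 858, 761 to 869 and 634 to 800 RPKM, where Rbfox3 was at -1.53, Neurod6 at -0.62, Map2 at -0.30, Tbr1 at 0.31 and Dcx at 0.23, while Tubb3, at -0.20, did not pass (adjusted p = 0.105).

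No marker of these lists that was tested was at 0 in any library. Erythroid sums were 1394 to 1922 RPKM in control, 1107 to 1580 RPKM in heterozygous and 1132 to 1529 RPKM in homozygous libraries, with a median log2 change of -0.39 in homozygous and also -0.39 in heterozygous cortex. Microglial sums were 16.8 to 19.3, 17.4 to 21.1 and 21.6 to 29.8 RPKM, with 3 of 8 higher and a median log2 change of 0.34. Those that rose were the complement genes C1qa (0.49) and C1qb (0.48) and Aif1 (0.63), named after their values were seen. Csf1r, the receptor that microglia need, was at 1.83, 2.49 and 2.73 RPKM in control and 2.46, 2.62 and 3.06 RPKM in homozygous libraries (adjusted p = 0.299). Of the endothelial markers 0 of 8 were called, of the choroid plexus markers 0 of 5 and of the meningeal and pericyte markers 1 of 7, higher. The part of progenitor, erythroid or microglial cells in the members' changes was not tested.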

How the data were processed

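Each of the 9 tables deposited by the authors lists 30978 RefSeq transcripts with an RPKM value, per the file headers. The submitters' processing notes name CASAVA 1.8.2, TopHat 1.4.1 and build mm9. Which program made the RPKM, with which annotation and use of strand, the sources used here do not say. The tables hold no counts, so tests were made on log values. Gene names came from a RefSeq table for 30507 transcripts and from GENCODE M21 for 178, and 293 stayed unnamed. Depth was estimated from the smallest step between low values. Of values worth under 5 reads, 66.0% to 70.1% lay within 0.1 of a whole read.

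Each gene was represented by its transcript with the highest mean. A limma fit (version 3.58.1, R 4.3.3) on log2(RPKM + 0.5) took in the 9 libraries by genotype, with a mean-variance trend, over genes averaging 0.5 RPKM or more. The simulated data it was tested on drew each gene independently and held no deviation shared by the genes of a library. Exact permutation tests used scipy 1.17.1. The members and lists were chosen with earlier results of these data known, and 269 of 271 list entries were matched. Values per library are given for Sfpq, for the 1 to 3 members of each function with the lowest adjusted p between homozygous and control cortex, for every member not called in that comparison, and for the highest and lowest member. Of each other pathway list the 2 genes with the smallest adjusted p in each direction are named. The series' design text counts 3 embryos per genotype. No 2 libraries held the same values: the SD of their log2 difference within a group was at least 0.148.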

Additional observations from a re-analysis of the deposited data

How the results depend on the processing

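Against control, 28 of the 32 members called lower in homozygous cortex were called lower in all 23 alternative fits, and Aspm, Incenp, Kif23 and Plk4 were not; no member changed sign. Leaving out 1 library gave 29 to 36 members lower and 0 to 1 higher, where 15.9% to 19.7% of all genes were lower. The other planned settings gave 29 to 34 lower, where 9.5% to 21.2% of all genes were. The count of 0 higher became 1, Pttg1, with quantile normalization, with the same median in each library and with only the 2 groups compared, and without heterozygous library 2. Against heterozygous cortex 22 of 32 were held in all fits. Leaving out 1 library gave 24 to 36 lower and 0 to 1 higher in this comparison, where 14.1% to 19% of all genes were lower. The other planned settings gave 23 to 32 lower (lowest with no filter on low values), where 8.48% to 19.2% of all genes were lower. The count of 1 higher there became 0 with no filter, without heterozygous library 2, homozygous library 2 or homozygous library 3, and without homozygous library 2 and control library 1 together; the cause was not tested. In heterozygous against control cortex 0 members were called in any fit. The Sfpq change ranged from -2.91 to -2.78. With the replicate number as a block (replicate block) 32 members were lower against control and 32 against heterozygous cortex, as without it. Deviations of same-numbered libraries correlated by 0.404, 0.0685 and 0.322 between control and homozygous cortex and by -0.0444 to 0.0995 in the other pairs of genotypes, and those of differently numbered libraries by -0.44 to 0.0963. Not every library correlated best with its own number (control 2 with homozygous 1), and no source says that a number marks a shared litter or day, so the numbers were not taken as pairs. The files give no counts, so counting error per gene is unknown.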

Other observations

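Birc5 and Pttg1 each had 2 transcripts in the tables, and the means of both transcripts of a gene moved the same way. The Birc5 transcript with 3334 exonic bases averaged 9.98 ± 0.199 RPKM (control) and 7.58 ± 0.774 RPKM (homozygous; SD, n = 3). The longer Pttg1 transcript averaged 1.81 ± 0.0847 and 2.24 ± 0.168 RPKM (SD, n = 3). Foxm1 and Mybl2, which activate late cell cycle genes and were named after their values were seen, both fell (limma adjusted p = 0.00254 and 8.80e-04). Foxm1 averaged 2.02 ± 0.0680 RPKM (control) and 1.46 ± 0.0566 RPKM (homozygous), and Mybl2 averaged 5.10 ± 0.214 and 3.25 ± 0.382 RPKM (SD, n = 3).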
